A study of Callithrix jacchus with 20 samples.

Results

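Fibroblast genes that were silent in control embryonic stem cells (ESCs) of the common marmoset were followed through nuclear transfer and differentiation. A gene entered the group when it stood at 20 TPM or more in the donor fibroblast library and at 1 TPM or less in each of 4 control ESC lines, where TPM scales reads for gene length and gives them as a share of the library. Of 22327 genes of the stem cell table, 6479 met the fibroblast threshold, 7044 met the ceiling in control ESCs and 130 met both. After 15 genes with only a LOC identifier, 4 HOX genes, 2 collagen genes and MGP were left out, 108 genes remained. The genes were thus chosen by their fibroblast and control ESC levels, which are given as a description without a test.

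Somatic cell nuclear transfer (SCNT) places a somatic nucleus in an enucleated oocyte, whose cytoplasm has to switch off the donor cell's program before embryonic genes can take over. Fibroblast identity rests on mesenchymal transcription factors together with a large secreted output of matrix proteins, proteases, growth factor binding proteins and chemokines. Members of the group are thus markers of what the donor nucleus expressed before transfer and what a fertilized control did not express as a stem cell. Embryoid bodies (EBs) are suspension aggregates in which stem cells differentiate into derivatives of the germ layers, mesenchyme included, and they show whether such genes can be switched on again.

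The control ESC lines were wildtype, #15 and #17 after in vitro fertilization and #13 and #37 after natural fertilization. The 7 ntESC lines came from SCNT embryos that had received mouse Kdm4d mRNA (for a histone H3K9 demethylase) and the deacetylase inhibitor trichostatin A. Their treatment protocol also lists an inhibitor of the histone methyltransferase G9a, which the growth protocol gives as RK-701 and as used in some experiments. The study reported every established ntESC line from embryos that had received the inhibitor together with Kdm4d mRNA and trichostatin A. Lines #30, #53 and #61 had wildtype nuclei (ntESC WT), and #24, #50, #54 and #55 had nuclei carrying the CAG-EGFP transgene, whose CAG promoter is active in most cell types (ntESC GFP). EB libraries came from control lines #13, #17 and #37, from ntESC WT #30, #53 and #61 (ntEB WT) and from ntESC GFP #24 and #50 (ntEB GFP). Each library is 1 culture of 1 line, so a replicate is a line. All stem cell lines were grown without feeder cells, in medium conditioned by mouse embryonic fibroblasts. The fibroblast library is single and came from a wildtype donor, and no library of GFP donor fibroblasts was analysed here. Line #54 was reported to carry a translocation at a later passage.

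The fibroblast library carried its label: 33 of 34 fibroblast markers stood at 20 TPM or more, and 8 of 11 pluripotency markers, NANOG included, were at 0. All 11 pluripotency markers were above 1 TPM in every stem cell line, with a summed level of 7982 to 9917 TPM in controls, 4333 in ntESC WT #30, 3977 in ntESC WT #53 and 7094 to 9924 in the other 5 ntESC lines. ntEB GFP #24 stood apart from the other EBs, since its pluripotency markers summed to 6099 TPM against 44.0 to 256 in the remaining 7, so the main EB counts are also given without it. TPM keeps no total depth. The relative depth, estimated from the steps between low values, was 0.744 to 1.00 times that of control #13 in ntESC lines and 0.958 to 1.01 in the other controls. In EBs it was 0.789 in GFP #24 and 0.995 to 1.33 in the rest. In bulk libraries, fewer cells of a type and less RNA per cell cannot be told apart.

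In the donor fibroblasts the 108 members had a median of 44.6 TPM and summed to 9197 TPM, and 21 of them exceeded 100 TPM. In the control ESC lines the same genes summed to 18.1 to 26.1 TPM. The group held 30 genes for secreted or matrix proteins, 26 for transcription factors, 18 for enzymes or transporters, 11 for receptors or surface proteins, 8 with immune roles, 7 for contractile or cytoskeletal proteins and 8 others. The most abundant in fibroblasts were TSPAN11, a tetraspanin (561 TPM), IGFBP5, which binds insulin-like growth factors (544 TPM), and PRRX1, a homeobox factor of limb and dermal mesenchyme (464 TPM). They were followed by SLPI, a secreted protease inhibitor (451 TPM), the eosinophil chemokine CCL11 (386 TPM) and NPR3, the clearance receptor of natriuretic peptides (382 TPM). LTBP2, a latent TGF-beta binding protein family member of the matrix, stood at 312 TPM, the methyltransferase gene INMT at 306 TPM, TMEM119 at 241 TPM and DPT, which encodes the matrix protein dermatopontin, at 236 TPM. SLPI, CCL11, FAP (fibroblast activation protein, a surface protease), MMP1, SLITRK1 and EN1 were at 0 in all 4 controls.

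**Figure D1:**
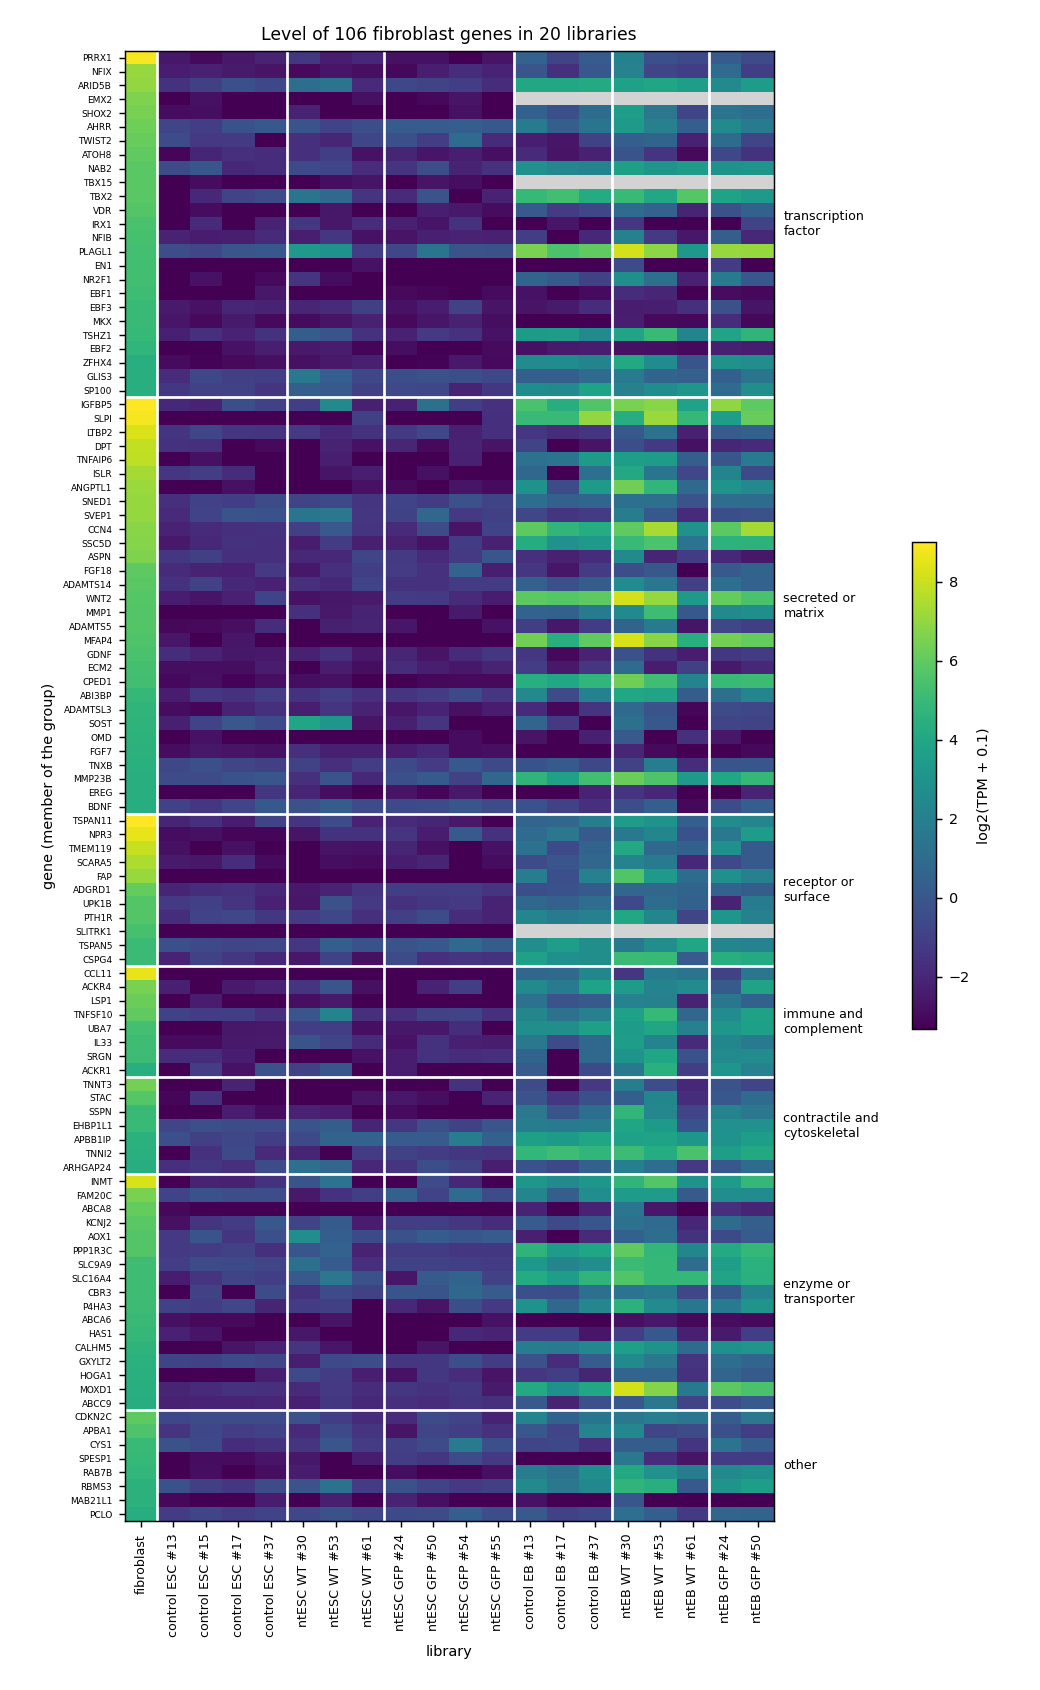
Colour gives log2(TPM + 0.1) of 106 of the 108 members (rows, by role and then by fibroblast level) in the 20 libraries (columns), on a scale that stops at 9, with grey where a gene had no EB value (EMX2, TBX15 and SLITRK1). The fibroblast column is bright throughout, the 11 stem cell columns are dark apart from a few genes of ntESC WT #30 and #53, and the 8 EB columns are bright for some members and dark for others.

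Both thresholds cut through a continuous range. Just inside the fibroblast threshold were PCLO (20.1 TPM), ARHGAP24 (20.4 TPM) and BDNF (20.5 TPM), and just outside BCL6 (19.96 TPM), PDCD1LG2 (19.65 TPM) and STAMBPL1 (19.58 TPM). At the control ceiling, BDNF, AHRR and PLAGL1 reached 0.942, 0.942 and 0.941 TPM in their highest control line, while SHISAL1, F10 and TNIK were left out at 1.02, 1.02 and 1.04 TPM. Typical fibroblast markers are rare in the group, since 28 of the 34 were above 1 TPM in at least 1 control ESC line. FAP, TWIST2, PRRX1 and DPT were the 4 markers in the group. A textbook list of limb and trunk mesenchyme transcription factors had 63 genes in the table. Of these, 12 were members, 42 lay below 20 TPM in fibroblasts and 9 were above 1 TPM in a control ESC line.

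Some members lie side by side in the genome. In the RefSeq gene order of assembly calJac240_pri, which is not the build of the files, ECM2, ASPN and OMD (small leucine-rich matrix proteoglycans and a relative) were adjacent on chromosome 1. ABCA8 and ABCA6, lipid transporter family genes, were adjacent on chromosome 5. TNNT3, LSP1 and TNNI2, with 1 protein-coding gene between neighbours, lay on chromosome 10; TNNT3 and TNNI2 encode subunits of the fast skeletal muscle troponin.

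The first question was whether donor gene expression persisted in the ntESC lines. Most members stayed silent: 77 of 108 were at 1 TPM or less in all 7 ntESC lines, and 31 exceeded 1 TPM in at least 1. Among all 7044 genes with the same silence in the 4 controls, 17.5% exceeded 1 TPM in at least 1 ntESC line. Their median in the fibroblast library was 0.0646 TPM, so this background was not matched to members for donor expression. It is given as a description, and what sets members apart from it was not tested. Without both ntESC WT #30 and #53 the count of members was 16. The median member stood at 0.146 TPM over the ntESC lines and at 0.125 TPM over the controls. PRRX1, at 464 TPM in fibroblasts, was at 0.301, 0.0901 and 0.155 TPM in ntESC WT #30, #53 and #61 and at 0 to 0.0557 TPM in the 4 ntESC GFP lines.

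Residual levels were unevenly spread over lines. Members above 1 TPM numbered 21 in ntESC WT #53 (19.4%, against 5.35% of all genes silent in controls), 11 in ntESC WT #30 (10.2% against 4.76%) and 1 in ntESC WT #61 (0.926% against 3.18%). In ntESC GFP the count was 11 in #54 (10.2% against 7.75%), 8 in #50 (7.41% against 3.69%), 5 in #55 (4.63% against 3.98%) and 3 in #24 (2.78% against 2.85%). Relative to the background, the shares were highest in #53, #30 and #50, close to it in #54, #55 and #24 and below it in #61. The summed level of the 108 members was 0.808% of the donor level in #53, 0.765% in #30 and 0.222% to 0.443% in the other 5 lines.

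**Figure D2:**
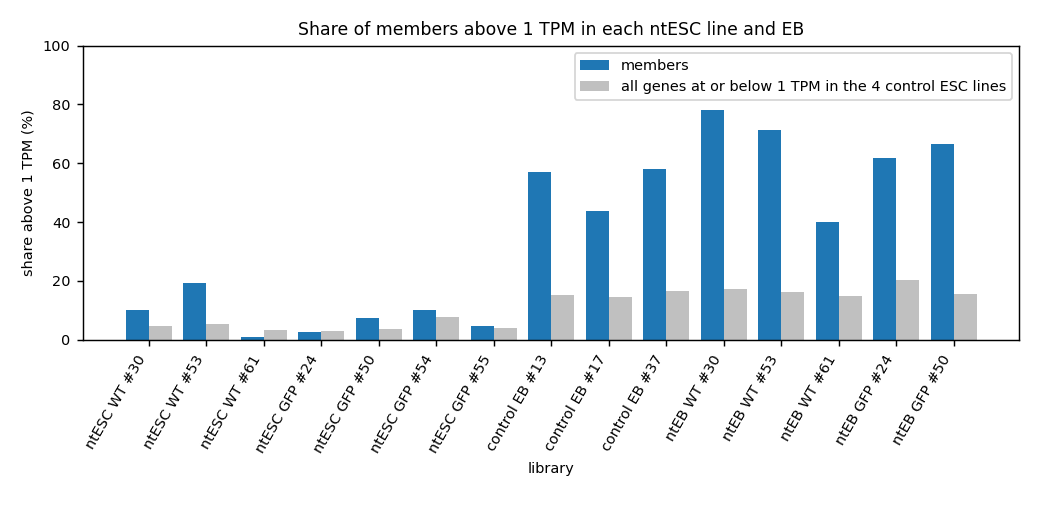
Bars give the percentage above 1 TPM in each of the 7 ntESC lines and 8 EBs, for the members (blue; 108 genes in stem cells, 105 in EBs) and for all genes at or below 1 TPM in the 4 control ESC lines (grey). In ntESC lines the blue bars stay at 19.4% or less, and in EBs they run from 40.0% to 78.1% while the grey bars stay at 20.4% or less.

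Control lines that the rule did not see also held chosen genes above 1 TPM. When the rule was applied with control #37 left out, 133 genes were chosen, and 25 of them (18.8%) exceeded 1 TPM in control #37, INHBA (a subunit gene of activin A) the most at 3.46 TPM. For that same choice of genes the share was 21.1% in ntESC WT #30 and 31.6% in ntESC WT #53. With #13, #15 or #17 left out in its place, 3.57%, 6.09% and 5.26% of the chosen genes exceeded 1 TPM in the line left out. For these choices the shares were 10.7%, 10.4% and 13.2% in ntESC WT #30 and 19.6%, 19.1% and 22.8% in ntESC WT #53. The shares of the ntESC lines are therefore to be read against a spread among fertilized lines that itself ran from 3.57% to 18.8%.

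SOST, the gene of the secreted WNT inhibitor sclerostin, came nearest to its donor level of 26.0 TPM. It stood at 15.5 TPM in ntESC WT #30, 8.42 TPM in ntESC WT #53 and 0.0590 TPM in ntESC WT #61. In ntESC GFP it was at 0.110, 0.276, 0 and 0 TPM in #24, #50, #54 and #55, and in controls at 0.111, 0.463, 0.904 and 0.568 TPM in #13, #15, #17 and #37. Lines #30 and #53 were the only stem cell lines above 1 TPM, and #61 lay below every control.

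PLAGL1, a zinc finger transcription factor gene known to be imprinted in humans and mice, had a donor level of 40.4 TPM. It was at 9.63 TPM in ntESC WT #30, 7.86 TPM in ntESC WT #53 and 0.377 TPM in ntESC WT #61, and at 0.513, 2.57, 0.778 and 0.739 TPM in ntESC GFP #24, #50, #54 and #55. Controls #13, #15, #17 and #37 had 0.644, 0.521, 0.844 and 0.941 TPM. Lines #30, #53 and #50 were high, and the other 4 ntESC lines lay within or below the control range.

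AOX1, an aldehyde oxidase gene, reached 6.71 TPM in #30 and 1.17 TPM in #53, with 0.589 to 1.12 TPM in the other ntESC lines and 0.266 to 0.826 TPM in controls. IGFBP5 reached 5.53 TPM in #53 and 2.23 TPM in GFP #50 but only 0.381 TPM in #30, where it lay within the control range of 0.129 to 0.669 TPM. Even the level in #53 was 1.02% of the donor level. TNFSF10, which encodes the death ligand TRAIL, was at 4.43 TPM in #53 and below 1 TPM in the other 10 stem cell lines.

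Lines #30 and #53 shared 10 members above 1 TPM, 7 of which were above it in no other ntESC line. These 7 were SOST, ARID5B, TBX2, SLC9A9, GLIS3, ARHGAP24 and SP100. Of them, 4 encode DNA-binding transcription factors or nuclear regulators (ARID5B, TBX2, GLIS3 and SP100). In the whole group 26 of 108 members were transcription factor genes, and whether the shares differ was not tested. The other 3 of the 10 were PLAGL1, AOX1 and SVEP1, which also exceeded 1 TPM in GFP #50, and AOX1 in GFP #55 as well. ARID5B, at 128 TPM in fibroblasts, was at 2.07 TPM in #30 and 2.49 TPM in #53, against 0.181 TPM in #61, 0.195 to 0.547 TPM in ntESC GFP and 0.248 to 0.710 TPM in controls. TBX2, a T-box repressor of limb and heart development, was at 2.58 and 1.77 TPM in the same lines against 0 to 0.779 TPM in every other stem cell line.

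Other markers moved in both lines as well. The 30 fibroblast markers that are not members summed to 7937 TPM in #30 and 9928 TPM in #53, against 1913 to 3632 TPM in the other 5 ntESC lines and 2415 to 5058 TPM in controls, of which #37 was the highest. Of these 30, 20 lay above all 4 controls in #30 and 19 in #53, and 7 lay below all 4 in each. Most of the sum came from FN1 (1629 and 3927 TPM in #30 and #53, at most 1050 TPM in controls), VIM (2208 and 2203 TPM, at most 978 TPM) and DCN (808 and 454 TPM, at most 93.8 TPM). Other defining fibroblast markers were lower: COL1A1 was at 79.6 and 129 TPM against 203 to 312 TPM in controls, THY1 at 4.58 and 4.85 TPM against 22.4 to 59.9 TPM and PDGFRB at 8.53 and 10.1 TPM against 28.4 to 46.4 TPM. The 63 mesenchyme transcription factors summed to 650 TPM in #30 and 444 TPM in #53, against 94.6 to 242 TPM in the other 5 ntESC lines and 102 to 323 TPM in controls, again with #37 the highest. Several lists of other cell types were higher too. Endothelial markers summed to 449 TPM in #30 and 526 TPM in #53 (161 to 253 TPM in the other 9 stem cell lines), cardiac markers to 415 and 238 TPM (29.0 to 182 TPM) and amnion and trophoblast markers to 426 and 105 TPM (5.53 to 65.1 TPM). The sums of macrophage and leukocyte, Schwann and melanocyte and liver and yolk sac markers were also higher in both, but no more of their genes exceeded 1 TPM than in controls. In #30 and #53 these were 2 and 3 of 6 macrophage and leukocyte markers, against 3 in each control. For Schwann and melanocyte markers they were 1 and 2 of 5, against 2 to 3. For liver and yolk sac markers it was 1 of 3 in both lines and in each control. Smooth muscle and pericyte markers (165 and 177 TPM, 102 to 221 TPM in controls) and skeletal muscle markers (320 and 214 TPM, 129 to 477 TPM) lay within the control range. Keratinocyte markers exceeded controls in #30 but not in #53. Chondrocyte and bone markers were not higher (11.6 and 20.7 TPM, 17.4 to 25.0 TPM in controls). All defining pluripotency markers were present in #30 and #53, at the lower sums given above. The part of these markers in the result was not tested.

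Line GFP #54 had a different set. Of its 11 members above 1 TPM, 5 were above it in no other ntESC line, and APBB1IP (an adaptor of integrin activation) was its highest at 3.52 TPM. APBB1IP was also the member that crossed 1 TPM in the most lines, 6 of 7, with 1.05 to 1.41 TPM in the 5 besides #54 and 0.590 TPM in WT #30. Controls had 0.391 to 0.715 TPM. CYS1, a gene of primary cilia, was at 3.31 TPM in #54 against 0.269 to 0.852 TPM in the other 6 lines. TWIST2, a dermal fibroblast transcription factor, was at 1.89 TPM in #54 and 0.151 to 0.700 TPM elsewhere in ntESCs, and FAM20C, a secretory pathway kinase gene, at 1.90 TPM in #54 and 1.28 TPM in #24. All genes silent in controls crossed 1 TPM most often in this line (7.75%).

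**Figure D3:**
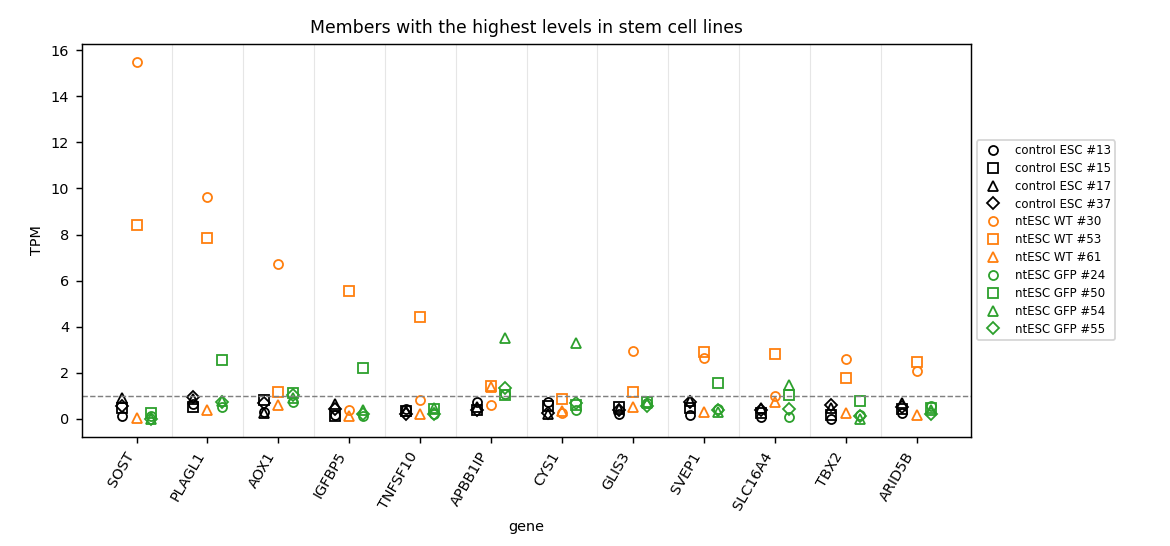
Points are TPM of 12 members with high levels in ntESC lines, in 4 control ESC lines (black), 3 ntESC WT lines (orange) and 4 ntESC GFP lines (green), with a symbol for each line and a dashed line at 1 TPM. SOST and PLAGL1 stand between 7.86 and 15.5 TPM in ntESC WT #30 and #53 while ntESC WT #61 lies below all 4 controls for both.

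The rule did not use the values of ntESC WT and ntESC GFP, and the contrast between them was tested with limma on log2(TPM + 0.1). The fit included the 4 control ESC lines, whose values the rule had capped, so they entered the filter and the estimate of the spread. Without a filter on low values, 105 members were tested among 22301 genes (CCL11, FAP and SLITRK1 were at 0 in all 11 stem cell lines). Of these, 0 passed at an adjusted p of 0.05 (13 at an unadjusted p under 0.05), where 0.126% of all genes were higher and 0.332% lower in WT. With a filter of a mean of 0.5 TPM, 16118 genes and 25 members remained, 11 of the latter with a mean under 0.5 TPM in the controls and thus only through ntESC lines in which they were high, so nothing is read from their number. Of these 25 members, 0 passed (0.552% of all genes did, 0.143% higher and 0.409% lower), and 4 had an unadjusted p under 0.05 (FAM20C, SOST, TBX2 and MMP23B). A fit of the 7 ntESC lines alone also called 0 members, of 27 tested (57 of all 16212 genes were called). The log2 difference was 4.04 for SOST (limma, standard error 1.33, adjusted p = 0.126) and −1.70 for FAM20C (limma, standard error 0.520, adjusted p = 0.117).

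The count depended on the line ntESC WT #61. Without it the filtered fit called 10 members, 9 higher and 1 lower in WT, while the calls over all genes grew to 12.8% higher and 13.4% lower. SOST was then 6.10 higher on the log2 scale (standard error 0.732, adjusted p = 0.00157 from limma), PLAGL1 3.07 higher (standard error 0.530, adjusted p = 0.00456) and ARID5B 2.32 higher (standard error 0.472, adjusted p = 0.00816). SLC9A9, ARHGAP24, TNFSF10, SVEP1, TBX2 and GLIS3 were the other 6 higher, and FAM20C was the member lower. That test rests on 2 WT lines that were looked at because they stood apart, and 6 of the 9 had a mean under 0.5 TPM over the 8 control ESC and ntESC GFP lines and passed the filter only through those WT lines, so these values are a description.

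The second question was whether the same genes were switched on in EBs. Of the 105 members with EB values, 34 exceeded 1 TPM in all 8 EBs, 16 in none and 55 in 1 to 7. Without ntEB GFP #24, 35 exceeded 1 TPM in the other 7 EBs and 16 in none. Among the 6068 genes silent in control ESCs that have EB values, 4.17% exceeded 1 TPM in all 8 EBs and 62.6% in none. These genes were likewise not matched to members for donor expression. A level of 20 TPM, the donor threshold, was reached by 26 members in at least 1 EB, against 2.92% of the silent genes, and by IGFBP5, SLPI, WNT2, PLAGL1, CCN4 and CPED1 in 6 or 7 of the 8. MFAP4 was the member at 20 TPM or more in all 8, against 0.115% of the silent genes. By library, 11, 8 and 9 members stood at 20 TPM or more in control EBs #13, #17 and #37 (against 1.24%, 1.15% and 1.3% of the silent genes), 22, 21 and 5 in ntEB WT #30, #53 and #61 (against 1.35%, 1.3% and 1.09%) and 9 and 15 in ntEB GFP #24 and #50 (against 0.544% and 1.09%).

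EB levels were mostly below those of the donor. The rule chose members by these donor values, at 20 TPM or more in the single fibroblast library, so lower levels elsewhere are favoured by the choice. The donor level itself was reached by 14 members in at least 1 EB and by 0 in all 8. The members summed to 4.13% of their donor sum in ntEB WT #61, 5.44% to 9.09% in the control EBs, 10.7% and 12.2% in ntEB GFP #24 and #50, 18.7% in ntEB WT #53 and 27.0% in ntEB WT #30. Over the 105 members the donor level and the mean EB level had a Spearman correlation of 0.152. This is across genes, which are not independent replicates, with donor levels cut off at 20 TPM by the rule.

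**Figure D4:**
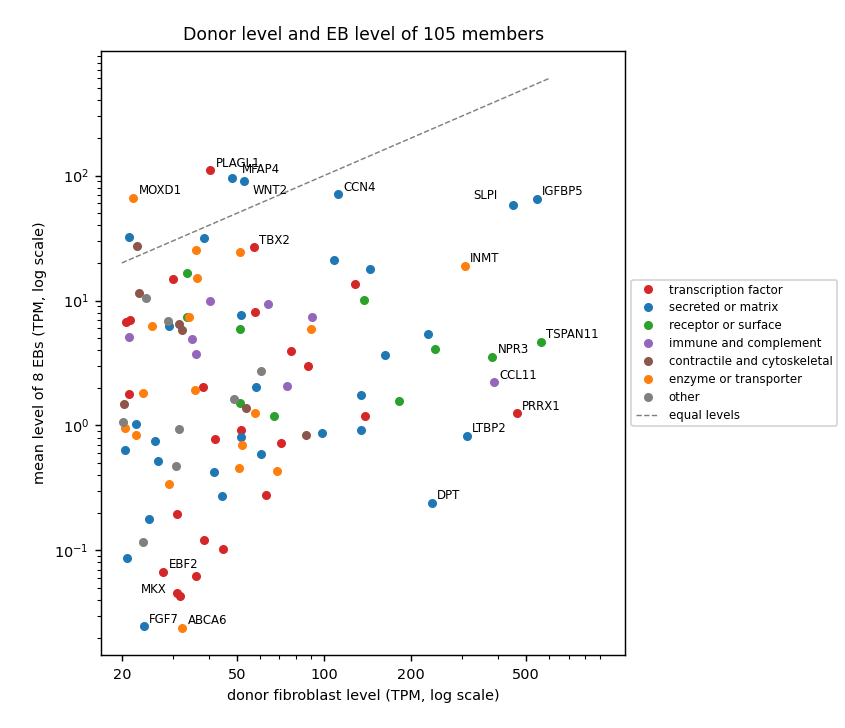
Each point is 1 of 105 members, with its level in the donor fibroblast library on the horizontal axis and its mean over 8 EBs on the vertical axis (both TPM, log scales), coloured by role, and a dashed line where both are equal. PLAGL1, MFAP4, WNT2 and MOXD1 lie above the line, while PRRX1, LTBP2 and DPT lie far below it at a mean of 1.25, 0.825 and 0.240 TPM.

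Of the 7 members with the highest mean over the EBs, 5 were secreted or matrix genes (MFAP4, WNT2, CCN4, IGFBP5 and SLPI), PLAGL1 was a transcription factor gene and MOXD1 an enzyme gene. MFAP4, a microfibril-associated glycoprotein gene, had a donor level of 48.2 TPM. It was at 82.3, 21.8 and 64.3 TPM in control EBs #13, #17 and #37, at 305, 112 and 21.1 TPM in ntEB WT #30, #53 and #61 and at 84.5 and 68.5 TPM in ntEB GFP #24 and #50. Of these, 6 EBs exceeded the donor, and control #17 and WT #61 were low.

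WNT2, a secreted WNT ligand gene (52.9 TPM in the donor), was at 60.2, 54.5 and 61.2 TPM in the control EBs, at 293, 133 and 10.2 TPM in ntEB WT #30, #53 and #61 and at 67.6 and 44.1 TPM in ntEB GFP #24 and #50. CCN4, a matricellular protein gene of the WNT response (111 TPM in the donor), was at 61.0, 27.3 and 20.0 TPM in control EBs, at 64.4, 168 and 7.86 TPM in ntEB WT and at 59.7 and 160 TPM in ntEB GFP. WT #53 and GFP #50 were the EBs above the donor for CCN4, and WT #61 was the lowest for both genes.

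IGFBP5 and SLPI were also high in absolute terms, yet below the donor in every EB. IGFBP5 was at 44.2, 20.3 and 51.0 TPM in control EBs, 90.9, 113 and 13.6 TPM in ntEB WT #30, #53 and #61 and 126 and 61.2 TPM in ntEB GFP #24 and #50, at most 23.2% of the donor. SLPI was at 32.5, 31.1 and 128 TPM in controls, 20.2, 143 and 29.8 TPM in ntEB WT and 12.0 and 70.9 TPM in ntEB GFP, at most 31.8% of the donor.

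PLAGL1 had the highest mean over the 8 EBs, 110 TPM, and was above its donor level of 40.4 TPM in all EBs but 1. It was at 91.9, 45.0 and 63.5 TPM in control EBs #13, #17 and #37, at 282, 118 and 9.28 TPM in ntEB WT #30, #53 and #61 and at 139 and 131 TPM in ntEB GFP #24 and #50. ntEB WT #61 was the exception. TBX2 had the next highest mean among the transcription factor genes (26.7 TPM), at 30.4, 38.0 and 19.2 TPM in controls, 32.1, 15.9 and 54.4 TPM in ntEB WT and 14.0 and 9.92 TPM in ntEB GFP, and its highest EB was WT #61.

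MOXD1, which encodes a copper monooxygenase-like protein of the secretory pathway, rose furthest beyond the donor (21.9 TPM) in a single EB. It was at 18.4, 7.25 and 15.8 TPM in control EBs, 281, 104 and 3.02 TPM in ntEB WT #30, #53 and #61 and 59.4 and 44.3 TPM in ntEB GFP #24 and #50. TNNI2 was at 11.4 to 43.3 TPM in all 8 EBs, against 22.6 TPM in the donor, whereas TNNT3, its partner gene in the chromosome 10 trio, stayed at 1 TPM or less except for 3.67 TPM in ntEB WT #30.

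**Figure D5:**
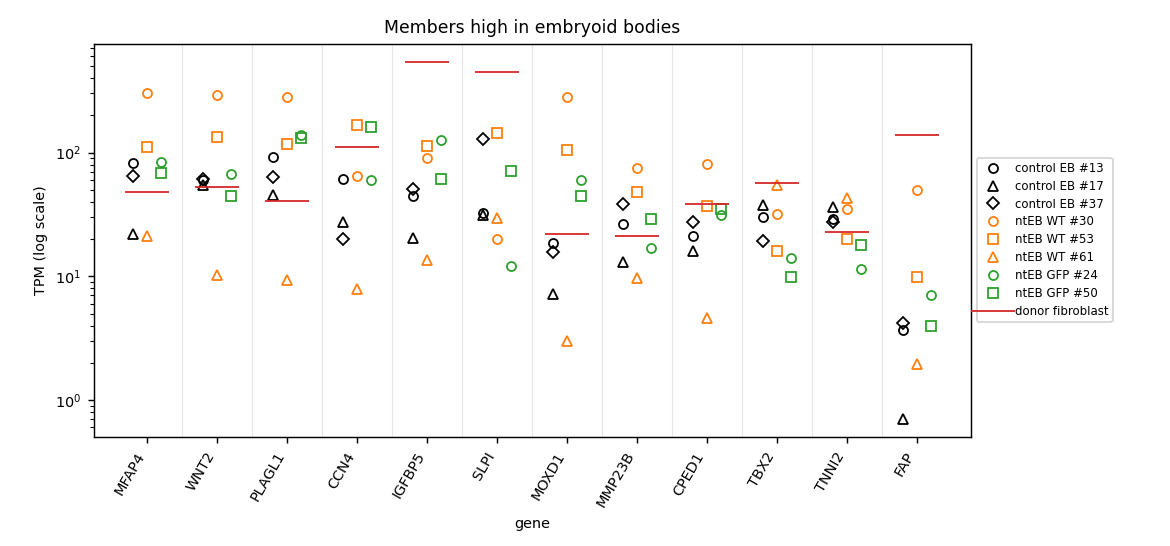
Points are TPM on a log scale of 12 members in 3 control EBs (black), 3 ntEB WT (orange) and 2 ntEB GFP libraries (green), and red bars give the donor fibroblast level. MFAP4, WNT2, PLAGL1 and MOXD1 pass the donor bar in several EBs, IGFBP5, SLPI and FAP in none, and ntEB WT #61 is the lowest point for 8 of the 12 genes.

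Transcription factor genes made up the largest class among those that stayed silent in EBs. Of 24 transcription factor genes with EB values, 8 (33.3%) were at 1 TPM or less in all 8 EBs, against 5 of 30 secreted or matrix genes (16.7%), 2 of 18 enzymes or transporters (11.1%) and 0 of 8 immune, 0 of 10 receptor or surface and 0 of 7 contractile or cytoskeletal genes. These are counts with no test. They included EBF1, EBF2 and EBF3 (early B cell factor family members that also act in adipose and dermal mesenchyme), MKX (a tendon homeobox factor), IRX1, EN1 (a homeobox factor of limb patterning) and ATOH8. EBF2, at 27.8 TPM in the donor, was at 0.0250 to 0.114 TPM in the EBs, and MKX, at 31.0 TPM in the donor, at 0 to 0.196 TPM.

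The secreted genes that stayed silent were DPT, GDNF, OMD, FGF7 and EREG. FGF7, the keratinocyte growth factor gene, was at 23.8 TPM in the donor and at 0 to 0.152 TPM in the EBs. Dermatopontin, at 236 TPM in the donor, did not pass 0.690 TPM. The other silent members were ABCA6, HAS1 and MAB21L1. Silent here means at 1 TPM or less, and in the unfiltered fit of ntEB WT against ntESC WT described further on, OMD (log2 difference 1.70, adjusted p = 0.0280 from limma), HAS1 (2.00, adjusted p = 0.0165) and EBF1 (0.98, adjusted p = 0.0351) were nevertheless higher below that level. PRRX1 was detected but low, at 1.37, 0.473 and 1.09 TPM in control EBs, 4.14, 0.712 and 0.550 TPM in ntEB WT #30, #53 and #61 and 1.07 and 0.632 TPM in ntEB GFP #24 and #50, which is at most 0.891% of the donor. Of the 12 members of the mesenchyme list, 11 had EB values, 1 (TBX2) exceeded 1 TPM in all 8 EBs and 5 in none.

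The EBs differed widely among lines of the same group. ntEB WT #30 was the highest of the 8 for 64 members and ntEB WT #61 the lowest for 48. Members above 1 TPM numbered 82 of 105 in ntEB WT #30 (78.1%, against 17.1% of the silent genes), 75 in ntEB WT #53 (71.4% against 16.1%) and 42 in ntEB WT #61 (40.0% against 14.7%). The counts were 60, 46 and 61 in control EBs #13, #17 and #37 (against 15.2%, 14.5% and 16.4%) and 65 and 70 in ntEB GFP #24 and #50 (against 20.4% and 15.7%). ntEB WT #30 lay above all 3 control EBs for 87 of 105 members (37.1% of all genes) and ntEB WT #53 for 73 (28% of all genes), while ntEB WT #61 lay below all 3 for 52 (26.7% of all genes). Each of ntEB GFP #24 and #50 lay above all 3 for 60 (53.8% and 31.9% of all genes).

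In 8 members ntEB WT #30 was the EB above 1 TPM and the other 7 were at 1 TPM or less, among them SVEP1, ASPN, TNNT3, ABCA8, ECM2, SPESP1 and ADAMTSL3. The neighbours ECM2 and ASPN were both in this set, at 1.89 and 5.72 TPM in ntEB WT #30 against at most 0.399 and 0.335 TPM in the other EBs, and OMD beside them reached 0.979 TPM in the same library.

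The spread over EBs ran with that of fibroblast markers outside the group. The 30 fibroblast markers that are not members summed to 62052 TPM in ntEB WT #30, 36036 in ntEB WT #53, 28926 in ntEB GFP #50, 22622 in ntEB GFP #24, 20026 in control #13, 16753 in control #37, 12138 in control #17 and 4369 in ntEB WT #61. The members summed to 2434, 1680, 1102, 962, 788, 818, 489 and 372 TPM in that order of libraries, so that the orders differ only in controls #13 and #37. The donor fibroblasts had 77751 TPM of these markers. Smooth muscle and pericyte markers, which include the member CSPG4, ran in the same order of libraries as the fibroblast markers, at 891, 275, 272, 249, 234, 171, 85.9 and 44.4 TPM. The endothelial markers were also highest in ntEB WT #53 and #30 (568 and 409 TPM) and lowest in ntEB WT #61 (121 TPM). Other lists ran otherwise: amnion and trophoblast markers summed to 238 TPM in ntEB WT #30, 1934 TPM in ntEB WT #61 and 5119 TPM in control #37. The part of any of these cell types in the EB values was not tested.

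Between groups of EBs no member passed the test. Of the 85 members with a mean of at least 0.5 TPM over the EBs, 0 were called in ntEB WT against control EBs (limma, with 3 at an unadjusted p under 0.05; 0.00602% of all genes called), 0 in ntEB GFP against control EBs (6 at an unadjusted p under 0.05; 0.012%) and 0 in ntEB WT against ntEB GFP (2 at an unadjusted p under 0.05; 0.018%). The median log2 difference of the members tested was 0.65 in WT and 0.80 in GFP, against −0.03 and 0.20 over all genes tested, and both comparisons share the control EBs. These medians moved with single libraries: in WT to 0.06 without ntEB WT #30, 0.32 without ntEB WT #53, 0.38 without control EB #17 and 1.58 without ntEB WT #61, and in GFP to 0.47 without control EB #17. Without ntEB WT #61, MOXD1 was 3.73 higher in ntEB WT than in controls on the log2 scale (standard error 0.524, adjusted p = 0.0495 from limma), and RBMS3 and EHBP1L1 were the other 2 members called (0.366% of all genes called higher). Without ntEB GFP #50, ARID5B was the member called in ntEB GFP, at −1.51 (standard error 0.269, adjusted p = 0.0457 from limma), where 3.06% of all genes were called higher and 0.39% lower. That fit leaves ntEB GFP #24 with its pluripotency markers as the only library of that group. Without ntEB GFP #24 no member was called in any of the 3 comparisons.

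EBs were then compared with their own stem cell lines. The rule used neither the EBs nor the ntESC lines, but the fit included the control ESC lines, whose capped values entered its spread. In fits of only the 2 groups compared, with a filter of a mean of 0.5 TPM over their libraries, 43 of 85 members tested were higher in WT (1049 of all 16215 genes). In GFP it was 58 of 72 (1687 of all 16635 genes). With the ntESC side near 0 for most members, they passed that filter mainly through their EB levels, so these counts are a description. In a limma fit of all 21181 shared genes without a filter on low values, 67 of 105 members were higher in ntEB WT than in ntESC WT (12.3% of all genes higher) and 63 of 105 in ntEB GFP than in ntESC GFP (11.1%). In both fits 0 were lower. Genes near 0 have little room to fall, and the ntESC side was near 0 for most members. The median log2 difference was 2.92 in WT and 2.55 in GFP. A total of 60 members were called in both and 35 in neither. With the filter of a mean of 0.5 TPM, which 78 members passed mainly through their EB levels, 60 were higher in each (14.3% and 13.6% of all genes), and 59 of them were shared.

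By role, 18 of 30 secreted or matrix genes rose in WT and 15 in GFP in the fit without a filter, 14 and 13 of 24 transcription factor genes, 9 and 9 of 10 receptor or surface genes and 6 and 8 of 8 immune genes. Contractile or cytoskeletal genes rose in 6 and 5 of 7 cases and enzymes or transporters in 11 and 10 of 18.

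In the fit without a filter MFAP4 had the largest change, with a log2 difference of 9.81 in WT (limma, adjusted p = 5.07e-07, standard error 0.695). In GFP its log2 difference was 9.57 (limma, adjusted p = 3.55e-06, standard error 0.737). It had been at 0 in all 7 ntESC lines, so the size of its difference depends on the pseudocount. Next by adjusted p in WT were TNNI2, with a log2 difference of 7.14, the lysosomal GTPase gene RAB7B with 6.00, CPED1 with 7.58 and WNT2 with 8.77. In GFP they were CPED1 with 8.15, RAB7B with 5.81, the channel gene CALHM5 with 6.15 and UBA7 (the activating enzyme of the ubiquitin-like modifier ISG15) with 5.93. TSHZ1, a zinc finger regulator of development, rose by 4.16 in WT and 6.24 in GFP, and NAB2, a corepressor of EGR factors, by 4.42 in each.

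Among the donor's most abundant genes, the log2 difference in WT and GFP was 8.01 and 7.78 for SLPI, 5.97 and 7.35 for IGFBP5, 5.16 and 6.45 for INMT, 4.75 and 4.21 for TMEM119, 3.94 and 3.62 for CCL11, 3.62 and 4.88 for TSPAN11 and 3.17 and 3.88 for NPR3. All of these passed the test in both groups, but without ntEB GFP #50 the GFP call was lost for CCL11 (limma, adjusted p = 0.150) and NPR3 (limma, adjusted p = 0.0924). In the fit without a filter PRRX1 also passed, at 2.28 and 2.76 (adjusted p = 0.00583 and 0.00548 from limma), from levels near 0 to about 1 TPM. It lost its GFP call without ntEB GFP #50 in the fit with the filter. In the fit without a filter LTBP2 did not pass (1.32 and 1.80, adjusted p = 0.116 and 0.0636 from limma), nor did DPT (1.29 and 0.50, adjusted p = 0.151 and 0.660 from limma).

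In the fit with the filter, the count for the GFP group depended on a single library: without ntEB GFP #50, where ntEB GFP #24 alone stood for the group, 34 of 76 members tested were higher (2.24% of all genes), and without ntEB GFP #24 it was 56 of 76 (14.3% of all genes). Without ntEB WT #61 the count in WT went from 60 to 67 of 78 (16% of all genes). Members passed this filter mainly through their EB levels, so these counts are a description. Control EBs against control ESCs, where the control ESC side was capped by the rule, are given as a description: 60 of 78 members were higher, where 20.7% of all genes were.

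Members with residual levels in ntESC lines had no uniform course in EBs. Of the 11 above 1 TPM in ntESC WT #30, 9 were higher and 2 lower in the EB of that line. Of the 21 in ntESC WT #53, 19 were higher and 2 lower. The same count over all genes was not made. By another measure, over 2-fold on the log2(TPM + 0.1) scale, 19.1% of all shared genes were higher and 23.3% lower in #30, and 15.9% and 25.9% in #53. These members were chosen by their ntESC levels, so nothing is read from their counts. SOST went from 15.5 to 2.24 TPM in #30 and from 8.42 to 0.962 TPM in #53, and AOX1 from 6.71 to 1.32 TPM in #30. PLAGL1 went the other way, from 9.63 to 282 TPM in #30 and from 7.86 to 118 TPM in #53. SVEP1 went from 2.66 to 3.69 TPM in #30 and from 2.89 to 0.942 TPM in #53. In the limma fit with the filter SOST had a log2 difference of −2.14 between ntEB WT and ntESC WT (standard error 1.48, adjusted p = 0.250). Without ntESC WT #61, where SOST was near 0, the difference was −4.20, in a fit that called 26.9% of all genes lower. SOST was looked at because it stood high in ntESC WT #30 and #53. A fall is thus favoured by the choice, and this value is a description.

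A list of other mesenchyme transcription factors served as a comparison. Of its 51 genes in the table that are not members, 36 were tested, and 6 were higher and 3 lower in ntEB WT than in ntESC WT, while 16 were higher and 1 lower in ntEB GFP than in ntESC GFP. Of all genes tested, 14.3% were higher and 32.1% lower in WT and 13.6% and 16.2% in GFP. Of the 12 members on the list, 6 were tested, and TBX2 (4.64 and 5.43 on the log2 scale), SHOX2 (4.41 and 4.45), NR2F1 (3.18 and 4.19), NFIX (2.92 and 2.29) and PRRX1 passed in both groups. NR2F1 lost its call in WT without ntEB WT #30 (limma, adjusted p = 0.0636), and NFIX lost its call in GFP in 7 of the fits with 1 library left out (limma, highest adjusted p = 0.0905).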

How the data were processed

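RNA-seq libraries of 12 stem cell stage cultures, the donor fibroblasts included, and 8 EB cultures were used. The authors trimmed reads with fastp, mapped them to calJac4 with STAR, keeping reads with a single location, counted them with featureCounts and converted the counts to TPM without sex chromosomes. The deposited values are TPM, and no other unit was used. Which sequencer read each library, which annotation was counted and whether counting used strand: not given in the sources used here.

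Here 3 genes that the calJac240_pri annotation places on X or Y were left out. The log2(TPM + 0.1) values of genes whose mean in a fit reached 0.5 TPM were tested with limma 3.58.1 in R 4.3.3 (eBayes with trend, Benjamini-Hochberg adjustment, threshold 0.05). Fits without that filter are named as such. The 11 stem cell libraries, the 8 EB libraries and all 19 formed a fit each, so that the spread of other lines also bears on each p. Fold changes on this scale understate changes of low genes. Lines can share a donor animal, so p-values speak only of variation from line to line. Other values came from Python 3.11.15 with numpy 2.4.6 and pandas 2.3.3. The test was checked on simulated data.

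Line numbers pair a stem cell library with its EB, since both are the same line. Deviations from group means correlated at 0.0375 to 0.264 within a line. Alternatives were another pseudocount, filter, normalization, trend, group choice or rule threshold, a replicate block and leaving out each library.

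The members, roles and gene lists were chosen with earlier results of these data known. Named genes are the 10 highest in fibroblasts, those above 1 TPM in the most ntESC lines or highest in a line, the 12 highest and 8 lowest in EBs, the 8 smallest adjusted p per comparison, those at the thresholds, transcription factors and marker genes. Others were chosen after their values were seen (RBMS3, EHBP1L1, SLC9A9, TNFSF10, HAS1, MAB21L1, GDNF, OMD, MMP1, SLITRK1, INHBA, the neighbours and the genes above 1 TPM in ntEB WT #30 alone). Of the members, 2 enter the counts but are not reported by name here.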

Additional observations from a re-analysis of the deposited data

Results flagged for a closer look

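Of 17 quantities examined over the 4 ntESC GFP lines (members with residual levels and their summaries), 5 had a line far from the other 3. Chance flags about 1 in 20 groups, but most of these genes were examined because a line stood above 1 TPM, so that rate does not apply to them. APBB1IP was at 3.52 TPM and CYS1 at 3.31 TPM in GFP #54. In GFP #50, IGFBP5 was at 2.23 TPM, PLAGL1 at 2.57 TPM and SVEP1 at 1.57 TPM, and all 3 were also above 1 TPM in ntESC WT #53.

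SOST moved in opposite directions from stem cells to EBs in the lines, with a mean log2 change of −2.14 in the WT group and 1.05 in the GFP lines #24 and #50. The fit with all 4 ntESC GFP lines gave a difference of the responses of −3.94 on the log2 scale (standard error 2.15, adjusted p = 0.638 from limma), so it failed the correction.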

How the results depend on the processing

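The size of the group followed its thresholds: 169 genes at a donor threshold of 10 TPM, 51 at 50 TPM and 188 with a control ceiling of 2 TPM, and 112 to 133 with a control line left out. The 31 members with residual levels became 51 above 0.5 TPM, 16 above 2 TPM, 14 at a donor threshold of 50 TPM, 8 at a ceiling of 0.5 TPM and 16 without ntESC WT #30 and #53 (an alternative chosen after seeing the data), and 24 to 31 with an ntESC line left out. The 26 members at 20 TPM or more in an EB became 48 at 10 TPM and 13 at 50 TPM, and 23 to 26 with an EB left out. With a library left out, members called ranged from 0 to 10 in ntESC WT against ntESC GFP, 0 to 3 in ntEB WT and 0 to 1 in ntEB GFP against control EBs, 0 to 0 in ntEB WT against ntEB GFP, 53 to 67 in ntEB WT against ntESC WT and 34 to 63 in ntEB GFP against ntESC GFP. Under every alternative, 43 of 60 members called in the fit with the filter kept their call in WT and 32 of 60 in GFP. These are descriptions, since members passed that filter mainly through their EB levels. With the line number as a replicate block among the 16 libraries whose line has an EB and a stem cell library, 60 members were called in WT and 45 in GFP, all higher. Of all 16473 genes in these fits, 2164 were higher in WT and 1212 in GFP. Without the block in those libraries the members called were 59 and 45 (chosen after seeing the data), where 2135 and 1050 of all genes were higher. No paired analysis was possible within a stage because groups share no line number. Counting error behind levels near 1 TPM is unknown.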
